A study of Homo sapiens with 12 samples.

Results

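snoRNA host genes are transcribed into RNAs whose introns carry small nucleolar RNAs (snoRNAs) and whose spliced exons, in the long noncoding hosts, encode no known conserved protein. A set of 10 such long noncoding hosts was examined: GAS5, SNHG1, SNHG5, SNHG6, SNHG8, SNHG12, SNHG15, SNHG16, ZFAS1 and EPB41L4A-AS1. Rows were matched by symbol, for a set proposed when earlier results of these data were known, and each matched 1 of the 58307 rows of the gene table that name a gene. A375 and SK-MEL-28, both established human malignant melanoma lines, had been incubated with etoposide, which traps topoisomerase II on cut DNA, or with etoposide + rapamycin, which inhibits mTOR complex 1, so every library carries etoposide and no group was untreated. The groups were A375 with etoposide, A375 with etoposide + rapamycin, SK-MEL-28 with etoposide and SK-MEL-28 with etoposide + rapamycin, each with 3 libraries of polyA-selected RNA. Doses and incubation times for these libraries were not given in the sources used here. Replicates were described as biological, and each group rests on 1 cell line.

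In vertebrates the exons of several of these hosts are spliced and exported, and they begin with a cytosine followed by a run of pyrimidines, the 5′ terminal oligopyrimidine (5′TOP) start that they share with messenger RNAs of ribosomal proteins. Translation of 5′TOP RNAs depends on mTOR signalling. Because the reading frames of the host RNAs are short and end early, ribosomes that translate them expose them to nonsense-mediated decay, and GAS5 (growth arrest specific 5) received its name from its accumulation in arrested cells. The comparison of etoposide + rapamycin with etoposide within each line asked how the amounts of these RNAs differed when mTOR was inhibited on top of etoposide. A gene was said to have risen or fallen where the adjusted p of the quasi-likelihood test of edgeR (Benjamini-Hochberg) was under 0.05 over all genes tested, and to be differentially expressed where its fold change also exceeded 1.5. Log2 fold changes are etoposide + rapamycin over etoposide, so positive values are higher with rapamycin. Levels are CPM, the counts scaled to a common library size by TMM.

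The start sites were read from GRCh38 at the position shared by the largest number of GENCODE 44 transcripts of each gene, from 30 bases before the start to 30 bases from it. They are shown because the pyrimidine run of a 5′TOP start, where present, lies there. SNHG6 and SNHG15 were left out of this step, so their starts were not classified. The start used was shared by 50 of 91 annotated transcripts of GAS5, 61 of 89 of SNHG5 and 25 of 80 of SNHG1. For SNHG8 it was 5 of 15, for SNHG12 4 of 19 and for SNHG16 5 of 18. For ZFAS1 it was 5 of 14 and for EPB41L4A-AS1 2 of 9. Where positions tied, the one furthest upstream was taken. Capitals mark a C followed by at least 4 C or T that begins within 5 bases of the start, on the strand of the gene, and the first base of the transcript is base 31.
GAS5 (chr1:173867960-173868019, strand -): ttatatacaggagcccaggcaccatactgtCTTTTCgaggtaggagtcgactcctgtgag
SNHG1 (chr11:62855856-62855915, strand -): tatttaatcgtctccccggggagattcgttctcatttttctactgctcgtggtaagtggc
SNHG5 (chr6:85678719-85678778, strand -): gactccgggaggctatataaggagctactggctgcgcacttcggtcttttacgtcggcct
SNHG8 (chr4:118278728-118278787, strand +): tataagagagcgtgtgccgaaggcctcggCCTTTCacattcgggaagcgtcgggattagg
SNHG12 (chr1:28581844-28581903, strand -): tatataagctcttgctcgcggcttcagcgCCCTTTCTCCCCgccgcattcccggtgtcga
SNHG16 (chr17:76557736-76557795, strand +): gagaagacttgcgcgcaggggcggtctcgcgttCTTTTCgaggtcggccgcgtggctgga
ZFAS1 (chr20:49278612-49278671, strand +): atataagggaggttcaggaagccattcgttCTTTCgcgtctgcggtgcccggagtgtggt
EPB41L4A-AS1 (chr5:112160834-112160893, strand +): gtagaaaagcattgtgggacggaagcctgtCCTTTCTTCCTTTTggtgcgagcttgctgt
Of these 8 genes, 5 (62.5%) had a run at the start itself, with a C at the first base followed by at least 4 C or T. They were GAS5, SNHG8, SNHG12, ZFAS1 and EPB41L4A-AS1, and in SNHG8 and SNHG12 the run also held the base before. SNHG16 had a run 3 bases further in. The same rule, with the C at the first base, was met by 3.55% of 16156 tested genes and by 65.8% of the 79 cytosolic ribosomal protein genes. With a start of the run allowed within 5 bases, 6 of the 8 held one, as did 20.2% of the tested genes and 75.9% of the ribosomal protein genes. SNHG1 and SNHG5 held no such run in this window, which says only that these letters were not at the annotated start.

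With rapamycin 7 of the 10 host genes rose in A375 (GAS5, SNHG1, SNHG5, SNHG8, SNHG12, ZFAS1 and EPB41L4A-AS1) and 8 rose in SK-MEL-28 (GAS5, SNHG1, SNHG5, SNHG6, SNHG8, SNHG16, ZFAS1 and EPB41L4A-AS1), and 0 fell in either line at the threshold. Over all tested genes 14.3% rose in A375 and 8.83% rose in SK-MEL-28, and the shares that fell were 13.8% and 10.1%. At an unadjusted p under 0.05 the count of members that fell was also 0 in both lines, and DESeq2 called 0 lower as well. The median log2 fold change of the 10 was 0.24 in A375, beside -0.00510 over all genes tested, and 0.32 in SK-MEL-28, beside 0.00530. Most of the rises were small: GAS5 was the only differentially expressed member in A375, where 3.09% of genes were differentially expressed and higher, and GAS5 and EPB41L4A-AS1 were differentially expressed in SK-MEL-28, where that share was 1.85%. The 3 libraries with rapamycin lay above the 3 with etoposide for 7 members in A375 and for all 10 in SK-MEL-28, and over all genes for 20.7% and 17.7%.

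**Figure D1:**
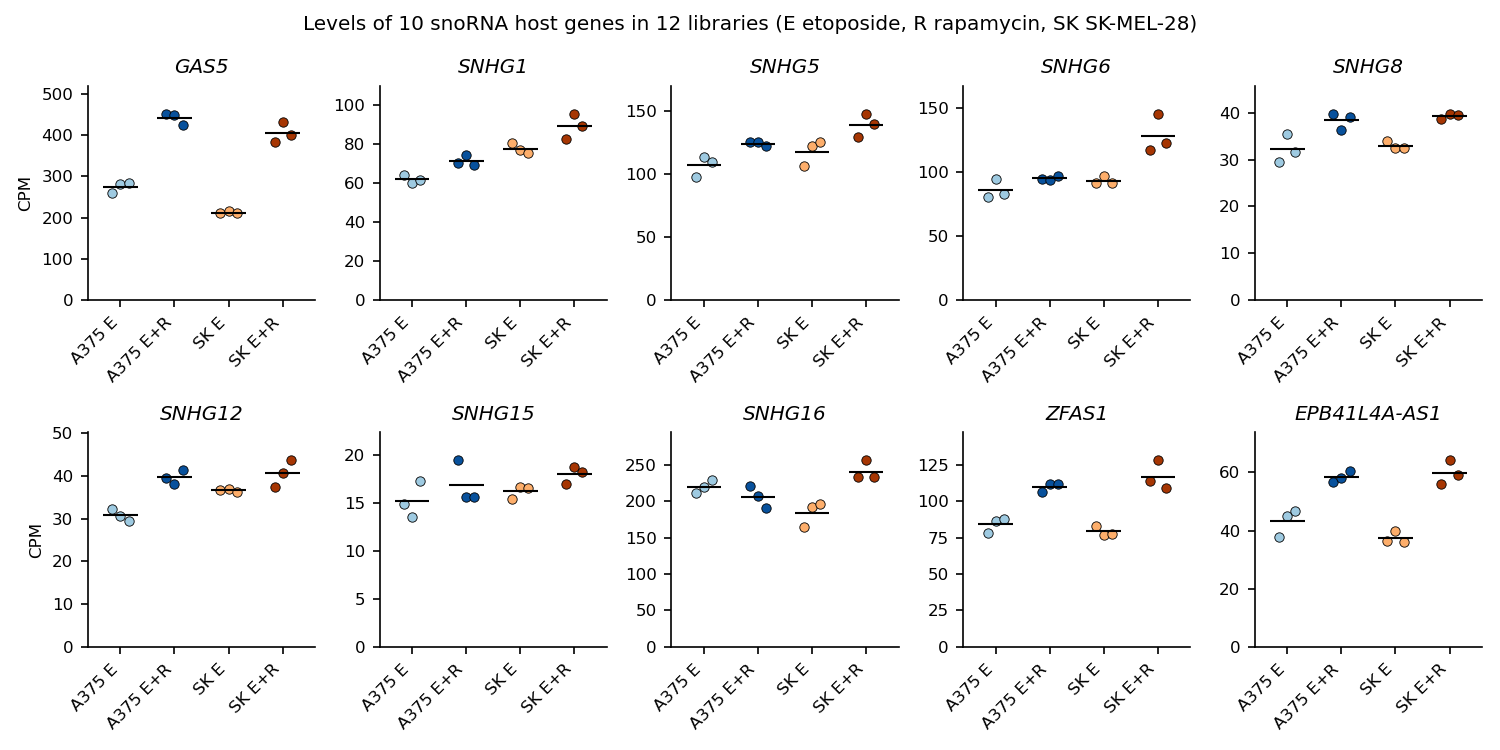
Level of each snoRNA host gene in CPM (vertical axis from 0, a separate scale for each gene) in the 4 groups, with 1 point for each library and a line at the mean of 3. The points with rapamycin lie above those with etoposide for 7 of the A375 panels and for all 10 in SK-MEL-28, and SNHG16 in A375 is the gene whose mean is lower with rapamycin.

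GAS5 hosts 10 box C/D snoRNAs in human, and its spliced RNA is known as a decoy for the glucocorticoid receptor. It lies on chromosome 1, minus strand (chr1:173858559-173868882, GRCh38). In A375 its level was 259.8, 282 and 284 CPM in the 3 libraries with etoposide and 451, 448 and 424 CPM in those with rapamycin. In SK-MEL-28 it was 210.3, 215 and 211 CPM and 383, 431 and 401 CPM. Every library with rapamycin stood well above every library with etoposide in both lines, and no other member separated the groups as widely. The mean moved from 275 ± 13.4 to 441 ± 14.9 CPM (SD, n = 3) in A375, a fold change of 1.61 (log2 0.69, SE 0.048, adjusted p = 1.29e-06 by edgeR). It moved from 212 ± 2.66 to 405 ± 24.1 CPM in SK-MEL-28, a fold change of 1.91 (log2 0.93, SE 0.052, adjusted p = 1.84e-07 by edgeR). GAS5 kept a log2 fold change of 0.65 to 0.71 in A375 and 0.89 to 0.97 in SK-MEL-28 with any 1 library left out.

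EPB41L4A-AS1 is transcribed antisense to the start of EPB41L4A and hosts SNORA13, a box H/ACA snoRNA (chr5:112160526-112164818, plus strand). Its level was 37.8, 44.9 and 46.8 CPM with etoposide and 56.5, 58.0 and 60.6 CPM with rapamycin in A375. In SK-MEL-28 it was 36.5, 39.9 and 36.0 CPM and 56.2, 64.1 and 59.3 CPM. The groups were apart in both lines, and the gap was wider in SK-MEL-28. The log2 fold change was 0.44 (SE 0.074, adjusted p = 8.58e-04 by edgeR) in A375 and 0.67 (SE 0.066, adjusted p = 1.78e-05 by edgeR) in SK-MEL-28, a fold change of 1.59.

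ZFAS1 hosts the SNORD12 snoRNAs (SNORD12, SNORD12B and SNORD12C) and starts head to head with ZNFX1 (chr20:49278178-49299600, plus strand). In A375 it measured 78.4, 86.8 and 87.7 CPM with etoposide and 106, 112 and 112 CPM with rapamycin. In SK-MEL-28 it measured 83.4, 76.9 and 77.7 CPM and 114, 128 and 109 CPM. No library with rapamycin fell within the range of the etoposide libraries of its line. The rise was 0.39 on the log2 scale (SE 0.054, adjusted p = 2.17e-04 by edgeR) in A375 and 0.56 (SE 0.064, adjusted p = 5.85e-05 by edgeR) in SK-MEL-28, under the fold change of 1.5 in both. ZFAS1, EPB41L4A-AS1 and GAS5 had the 3 largest rises of the 10 in each line, in the order GAS5, EPB41L4A-AS1 and ZFAS1.

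SNHG8, which hosts SNORA24, SNHG5, which hosts the SNORD50 snoRNAs, and SNHG1, which hosts the SNORD22 and SNORD25 to SNORD31 snoRNAs, rose by similar small amounts in both lines. SNHG8 (chr4:118278703-118285316, plus strand) measured 29.6, 35.4 and 31.7 CPM with etoposide and 39.7, 36.3 and 39.0 CPM with rapamycin in A375, and 34.0, 32.5 and 32.4 CPM and 38.8, 39.7 and 39.4 CPM in SK-MEL-28. The groups did not overlap, although in A375 the highest etoposide library came within 1 CPM of the lowest library with rapamycin. Its log2 fold change was 0.26 (SE 0.077, adjusted p = 0.0252) in A375 and 0.25 (SE 0.062, adjusted p = 0.0132) in SK-MEL-28 by edgeR. The call in A375 was lost with 4 of the 6 libraries left out in turn (replicates 1 and 3 of both treatments; highest adjusted p 0.0929), and that in SK-MEL-28 without etoposide replicate 3 (adjusted p = 0.0589).

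SNHG5 (chr6:85650491-85678932, minus strand) measured 97.3, 114 and 109 CPM with etoposide and 125, 125 and 122 CPM with rapamycin in A375, and 106, 122 and 125 CPM and 129.5, 147 and 139 CPM in SK-MEL-28. The A375 libraries with rapamycin were tightly grouped above the etoposide libraries, while in SK-MEL-28 both groups spread widely and came close to each other. The log2 fold change was 0.22 (SE 0.057, adjusted p = 0.0114) in A375 and 0.23 (SE 0.069, adjusted p = 0.0321) in SK-MEL-28 by edgeR. SNHG1 (chr11:62851978-62855953, minus strand) measured 64.1, 60.0 and 61.7 CPM and 70.4, 74.2 and 69.1 CPM in A375, and 80.4, 77.1 and 75.3 CPM and 82.7, 95.4 and 89.2 CPM in SK-MEL-28. Its groups stayed apart in each line by a few CPM only, and SK-MEL-28 lay above A375 in both treatments. The log2 fold change of SNHG1 was 0.21 (SE 0.052, adjusted p = 0.0104) in A375 and 0.20 (SE 0.058, adjusted p = 0.0318) in SK-MEL-28 by edgeR. In SK-MEL-28 both calls were lost in 4 of 6 fits that left out 1 library: SNHG1 without rapamycin replicate 2 or 3 or etoposide replicate 2 or 3 (highest adjusted p 0.123), and SNHG5 without rapamycin replicate 2 or 3 or etoposide replicate 1 or 2 (highest adjusted p 0.109).

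SNHG12, which hosts SNORA16A, SNORA44, SNORA61 and SNORD99, and SNHG6, which hosts SNORD87, passed the threshold in 1 line each. SNHG12 (chr1:28578538-28583132, minus strand) measured 32.3, 30.7 and 29.5 CPM with etoposide and 39.5, 38.2 and 41.5 CPM with rapamycin in A375, a log2 fold change of 0.37 (SE 0.067, adjusted p = 0.00147 by edgeR). In SK-MEL-28 it measured 36.8, 36.9 and 36.3 CPM and 37.4, 40.8 and 43.7 CPM, with a log2 fold change of 0.14 (SE 0.069, adjusted p = 0.172 by edgeR). The SK-MEL-28 etoposide libraries were nearly equal to each other and stood above those of A375, while the libraries with rapamycin were at similar levels in both lines. SNHG6 (chromosome 8, 66920561 to 66926398, minus strand) measured 80.2, 94.2 and 82.9 CPM with etoposide and 94.2, 94.0 and 96.8 CPM with rapamycin in A375, where etoposide replicate 2 lay inside the range of the libraries with rapamycin. The log2 fold change was 0.15 there (SE 0.060, adjusted p = 0.0781 by edgeR), and without that library it was 0.23 with an adjusted p of 0.00849. In SK-MEL-28 SNHG6 measured 91.5, 97.0 and 91.0 CPM and 117, 145 and 122 CPM, with the groups well apart. The log2 fold change in SK-MEL-28 was 0.46 (SE 0.073, adjusted p = 7.97e-04 by edgeR).

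SNHG15, which hosts SNORA9, did not pass in either line, and SNHG16, which hosts SNORD1A, SNORD1B and SNORD1C, passed only in SK-MEL-28. SNHG15 (chr7:44983019-44986961, minus strand) had the fewest counts of the 10 and measured 14.9, 13.5 and 17.2 CPM with etoposide and 19.4, 15.5 and 15.6 CPM with rapamycin in A375. In SK-MEL-28 it measured 15.4, 16.7 and 16.6 CPM and 16.9, 18.8 and 18.2 CPM. The A375 groups overlapped and the SK-MEL-28 groups nearly touched, and the 95% intervals of the log2 fold change were -0.10 to 0.41 and -0.048 to 0.33. These intervals include the rises of SNHG1, SNHG5 and SNHG8 in each line and not those of GAS5 and EPB41L4A-AS1. SNHG16 (chr17:76557727-76670985, plus strand) measured 211, 220.2 and 229 CPM with etoposide and 221, 207 and 191 CPM with rapamycin in A375. Its A375 groups overlapped, and the log2 fold change was -0.088 (95% interval -0.21 to 0.036, adjusted p = 0.284 by edgeR). In SK-MEL-28 SNHG16 measured 164, 192 and 197 CPM and 233, 256 and 233 CPM, with every library with rapamycin above every etoposide library. The log2 fold change in SK-MEL-28 was 0.38 (SE 0.069, adjusted p = 0.00208 by edgeR).

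**Figure D2:**
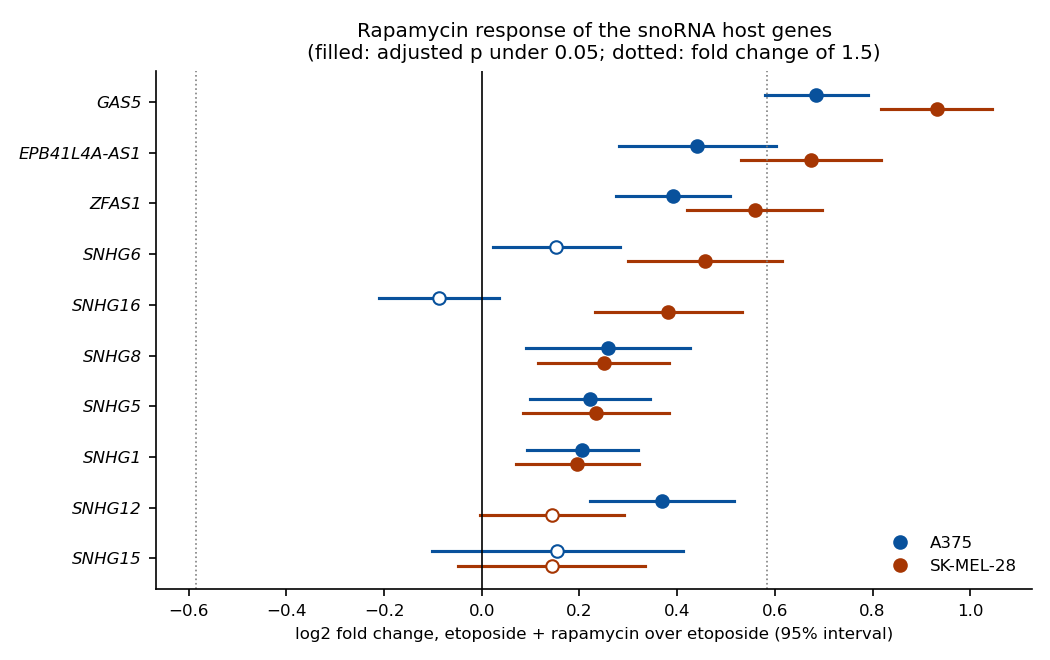
Log2 fold change of each host gene, etoposide + rapamycin over etoposide (horizontal axis), in A375 (blue) and SK-MEL-28 (orange), with 95% intervals from edgeR. Filled points passed an adjusted p under 0.05 and dotted lines mark a fold change of 1.5. GAS5 lies furthest right in both lines (0.69 and 0.93), and the SNHG16 intervals of the lines do not overlap (-0.088 and 0.38).

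The difference between the lines in the response to rapamycin was tested in 1 fit of all 12 libraries. Of the 10 members 2 responded more in SK-MEL-28 (GAS5 and SNHG16) and 0 responded less, beside 2.66% and 2.97% of all genes. At an unadjusted p under 0.05, SNHG12 was the member with the smaller response in SK-MEL-28 (difference -0.22, adjusted p = 0.188 by edgeR). For SNHG16 the difference of the log2 fold changes, SK-MEL-28 minus A375, was 0.48 (SE 0.096, 95% interval 0.27 to 0.68, adjusted p = 0.00810 by edgeR), and it passed with any 1 of the 12 libraries left out (0.40 to 0.53, adjusted p at most 0.0291). For GAS5 the difference was 0.25 (SE 0.070, 95% interval 0.11 to 0.40, adjusted p = 0.0417 by edgeR). This call was lost in 10 of 12 fits that left out 1 library, all but those without A375 etoposide replicate 1 or SK-MEL-28 rapamycin replicate 1 (0.21 to 0.29, adjusted p up to 0.117). GAS5 ended at similar levels with rapamycin in both lines (441 ± 14.9 and 405 ± 24.1 CPM) and started from a lower level in SK-MEL-28. SNHG6 and EPB41L4A-AS1 had differences of 0.31 (95% interval 0.095 to 0.53, adjusted p = 0.0877 by edgeR) and 0.24 (0.016 to 0.46, adjusted p = 0.209 by edgeR). For SNHG1, SNHG5, SNHG8 and SNHG15 the difference lay within 0.03 of 0, with 95% intervals of -0.17 to 0.17, -0.18 to 0.23, -0.20 to 0.20 and -0.32 to 0.32.

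With etoposide alone, SNHG1 and SNHG12 were higher in SK-MEL-28 than in A375, GAS5, SNHG16 and EPB41L4A-AS1 were lower, and the other 5 did not pass the test, beside 15.1% of all genes higher and 16.7% lower in SK-MEL-28. The log2 difference was 0.32 for SNHG1 (adjusted p = 2.91e-04 by edgeR) and 0.25 for SNHG12 (adjusted p = 0.00704 by edgeR). It was -0.38 for GAS5 (adjusted p = 1.47e-05 by edgeR) and -0.26 for SNHG16 (adjusted p = 0.00810 by edgeR). For EPB41L4A-AS1 it was -0.20 with an adjusted p of 0.0497, a call kept in 3 of 12 fits that left out 1 library. Its weakest value, -0.14 with an adjusted p of 0.234, came without A375 etoposide replicate 3. Both this comparison and the response use the etoposide libraries. A lower starting level and a larger response to rapamycin therefore share data for GAS5, SNHG16 and EPB41L4A-AS1, and are given side by side only.

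The CPM of the 10 genes summed to 955 ± 43.1 with etoposide and 1201 ± 27.1 with rapamycin in A375 (SD, n = 3), a ratio of 1.26, and to 887 ± 25.4 and 1277 ± 81.0 in SK-MEL-28, a ratio of 1.44. GAS5 made up 28.8% of the sum with etoposide and 36.7% with rapamycin in A375. Its share in SK-MEL-28 was 23.9% with etoposide and 31.7% with rapamycin. Without GAS5 the sums rose less, with a ratio of 1.12 for A375 and one of 1.29 for SK-MEL-28. Long and short RNAs receive different numbers of counts at the same abundance, so levels of different members were set side by side per kb of their median annotated transcript. On that scale GAS5 was highest, at 376 CPM per kb in A375 and 290.0 in SK-MEL-28 with etoposide, followed by SNHG6, at 165 and 179.5. Next came ZFAS1 and SNHG5 in every group, whose libraries overlapped each other in SK-MEL-28 with etoposide, as SNHG5 overlapped SNHG16 in A375 with etoposide. SNHG16, EPB41L4A-AS1, SNHG8 and SNHG1 followed in an order that changed between groups, with neighbours that overlapped in 3 of the 4 groups. SNHG12 was ninth, at 28.5 and 33.9 CPM per kb. SNHG15 was lowest, at 14.4 and 15.4 CPM per kb. With the length of all annotated exons in place of the median transcript, a length chosen after the values were seen, GAS5 stayed highest and SNHG15 lowest, but the order between them changed. The first place of GAS5 depends on the length used. The transcript marked canonical in the annotation has 498 bases for SNHG16, against a median of 2459, and 768 for GAS5, against 731. Per kb of that transcript, SNHG16 would stand above GAS5 with etoposide in both lines. The coefficient of variation between the 3 libraries of a group had a median of 5.06% over members and groups and reached 13.1%.

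The snoRNAs themselves were not measured by these polyA-selected libraries. Of 34 snoRNAs hosted by the 10 genes, 29 had a row by name and 20 had one within the locus of the host, where 16 stayed under 10 counts in every library and the highest value was 31 counts. Of these 20, 10 held exactly 1 count in every library. Of all 34, 5 passed the expression filter, wherever their row lay (SNORD99, with up to 22 counts, had none in the locus of its host). Of these 5, 0 rose and 0 fell in either line by edgeR, and 0 had an unadjusted p under 0.05 in any of the fits by line. Names of snoRNAs share a locus identifier with 9 of the 10 hosts (all but GAS5), and the other names of such a locus together held at most 1.47% as many counts as the host, for ZFAS1. How the counting divided reads between names of a locus is not stated.

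Of the genes that overlap a member or start within 1000 bases of its start, 8 with a mean of at least 10 counts are reported, and all 8 lie on the opposite strand. Of these 8 tested in A375 and 7 tested in SK-MEL-28, 0 passed, and ZBTB37 and GAS5-AS1 beside GAS5, SLC3A2 beside SNHG1, PRSS12 beside SNHG8, TRNAU1AP beside SNHG12 and ST6GALNAC2 beside SNHG16 were among them. ZBTB37, a zinc finger and BTB domain gene, held 7.20% as many counts as GAS5 and had log2 fold changes of 0.17 and 0.016 in A375 and SK-MEL-28. ZNFX1, a zinc finger helicase, held 144% as many as ZFAS1 and had log2 fold changes of -0.030 and -0.20 (adjusted p = 0.772 and 0.0669 by edgeR). EPB41L4A, a band 4.1 family gene, held 11.1% as many as EPB41L4A-AS1 and had log2 fold changes of -0.33 and -0.35 (adjusted p = 0.115 and 0.136 by edgeR). At an unadjusted p under 0.05 EPB41L4A was lower in both lines and ZNFX1 in SK-MEL-28. Whether strand was used in counting is not stated, so reads of a member and of its antisense neighbour cannot be told apart where their exons overlap.

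Other long noncoding snoRNA hosts were mixed. Of 22 names listed 19 had a row, and 4 of 16 tested rose and 1 fell in A375, while 6 of 15 rose and 1 fell in SK-MEL-28, with median log2 fold changes of 0.064 and 0.25. C6orf48 (SNHG32) rose by 0.89 and 0.83 on the log2 scale in A375 and SK-MEL-28, SNHG7 by 0.62 and 0.59, LRRC75A-AS1 (SNHG29) by 0.49 and 0.60, and SNHG17 by 0.24 and 0.25, with adjusted p of at most 0.00885 by edgeR. DANCR, which hosts SNORA26, fell by 0.34 in A375 (adjusted p = 0.00122 by edgeR) and had -0.096 in SK-MEL-28 (adjusted p = 0.431). SNHG14, the long host of the SNORD115 and SNORD116 clusters, fell by 0.30 in SK-MEL-28 (adjusted p = 0.00157 by edgeR) and had -0.13 in A375 (adjusted p = 0.0629). SNHG3, among the highest of the list, had -0.0071 and 0.21 and passed in neither line. SNHG7 and SNHG17 were named after their values were seen.

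Among protein-coding genes that host snoRNAs, 9 of 25 rose and 4 fell in A375, and 8 rose and 3 fell in SK-MEL-28, with medians of 0.027 and 0.055. EEF2, the translation elongation factor, rose by 0.82 and 0.61, RACK1, a ribosome-bound scaffold, by 0.53 and 0.51, and TPT1 by 0.25 and 0.45, all with adjusted p of at most 8.25e-04 by edgeR. AP1G1, an adaptor subunit of clathrin coats, fell by 0.25 and 0.20, and GNL3, a nucleolar GTPase, by 0.23 and 0.17. EIF4G2 and WDR43 fell in A375 (log2 -0.13 and -0.22), and CNOT1 in SK-MEL-28 (-0.29). Of the snoRNP proteins, which assemble with snoRNAs, 5 of 15 rose and 2 fell in A375, and 2 rose and 0 fell in SK-MEL-28 (medians 0.019 and 0.047). FBL, the methyltransferase of box C/D particles, rose by 0.41 and 0.20. NOP56, NHP2, RUVBL1 and RUVBL2 rose in A375 by 0.14 to 0.24, where SHQ1 and NOP10 fell by 0.39 and 0.21, and NAF1 rose in SK-MEL-28 by 0.45. EIF4G2, GNL3, WDR43, RUVBL1 and NOP10 were named after their values were seen.

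Of 16 factors of nonsense-mediated decay, the pathway known to remove translated host RNAs, 4 rose and 0 fell in A375, and 4 rose and 1 fell in SK-MEL-28 (medians 0.052 and 0.0029). UPF1, the central helicase of the pathway, rose by 0.39 and 0.30, SMG9 by 0.32 and 0.32, and CASC3 by 0.22 and 0.16. SMG5 rose in A375 (0.21; 0.0044 in SK-MEL-28), MAGOH in SK-MEL-28 (0.31; 0.046 in A375), and PNRC2 fell in SK-MEL-28 by 0.17. SMG1, the kinase that phosphorylates UPF1, had 0.066 and -0.096 and passed in neither line. CASC3 and MAGOH were named after their values were seen.

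The cytosolic ribosomal protein genes, the best known RNAs with 5′TOP starts, rose nearly throughout: 76 of 79 rose and 1 fell in A375, and 76 rose and 0 fell in SK-MEL-28, with medians of 0.40 and 0.50 beside 0.24 and 0.32 for the 10 host genes. RPL12 rose by 0.75 and 0.68 and RPL13A by 0.64 and 0.69, and these were the largest rises of the class in A375 and SK-MEL-28 respectively. GAS5 lay within the range of the class in A375 and above all 79 genes in SK-MEL-28, while in A375 8 of the 10 lay below its median and in SK-MEL-28 7 did. RPS2 rose by 0.67 and 0.50 and RPLP0 by 0.33 and 0.37. RPS26 fell in A375 by 0.18 (adjusted p = 0.0204 by edgeR). The genes whose log2 CPM over the 12 libraries, after subtraction of the mean of each line, was most like the mean of the members were RPL6 (Pearson r 0.988), LRRC75A-AS1 (0.986), RPS12 (0.984), RPLP0 (0.984) and RPS4X (0.984), out of 12309 genes compared. Of the 100 most alike, 50 were ribosomal protein genes, a class of 79 genes, where 12309 genes were compared. These correlations describe 12 libraries in which all such genes differ between the same groups and share the scaling of each library.

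**Figure D3:**
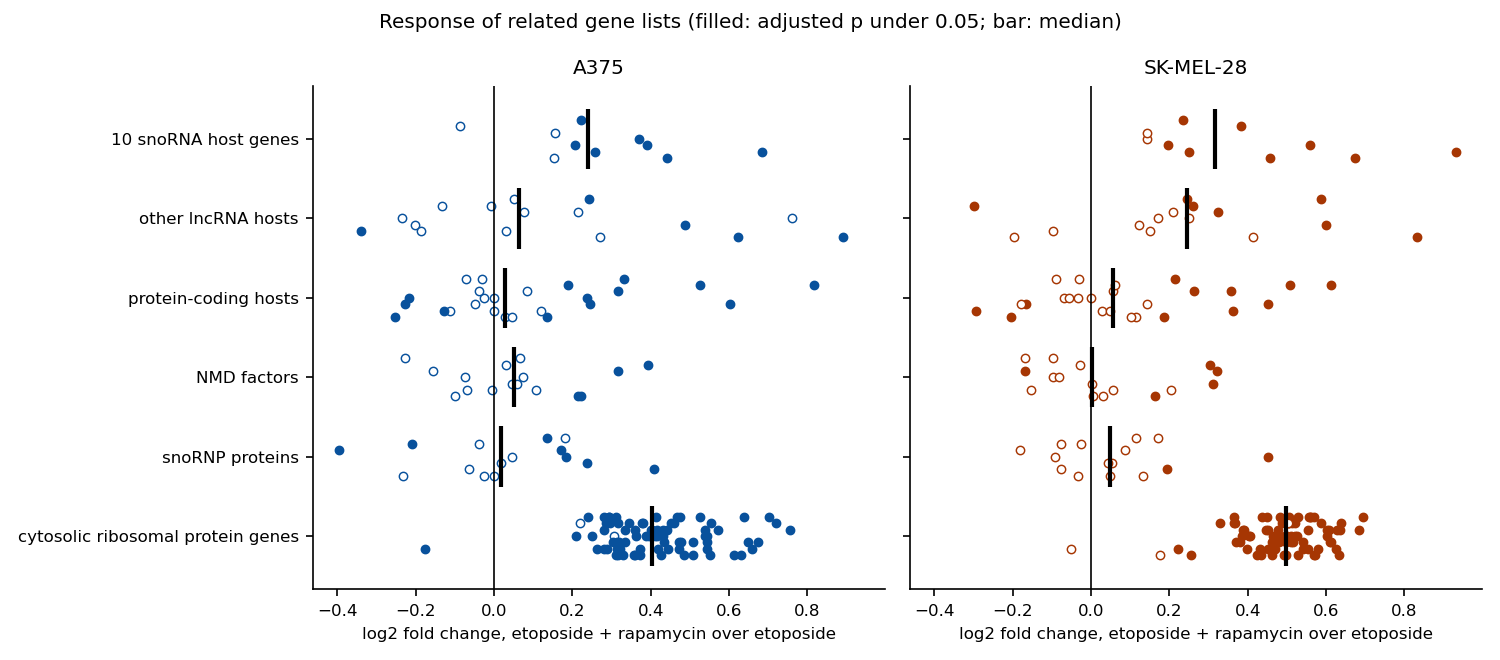
Log2 fold change, etoposide + rapamycin over etoposide (horizontal axis), of every tested gene of 6 lists in A375 and SK-MEL-28. Filled points passed an adjusted p under 0.05 and black bars are medians. The bar of the 10 host genes (0.24 and 0.32) lies between those of the protein-coding hosts (0.027 and 0.055) and of the ribosomal protein genes (0.40 and 0.50).

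The response was also set beside the run at the start, and the outcome depended on where the run had to begin. In A375 the 5 members with a run at the start (GAS5, SNHG8, SNHG12, ZFAS1 and EPB41L4A-AS1) had log2 fold changes of 0.26 to 0.69, above all 3 without it (SNHG1, SNHG5 and SNHG16, -0.088 to 0.22). SNHG6 and SNHG15, whose starts were not classified, had 0.15 and 0.15 in A375, below those 5. A run at the start of either would end this separation. In SK-MEL-28 the ranges overlapped, with 0.14 to 0.93 for the 5 and 0.20 to 0.38 for the 3. With a run allowed to begin within 5 bases SNHG16 joined the group with a run, the A375 values were -0.088 to 0.69 for 6 members and 0.21 to 0.22 for 2, and the separation was gone. Over all other tested genes, leaving out the members and the ribosomal protein genes, the median log2 fold change in A375 was 0.048 in 497 genes with a run at the start and -0.010 in 14891 without, and 24.5% against 15.5% rose. In SK-MEL-28 the medians were 0.048 in 502 genes and -0.00507 in 14919, and 17.1% against 8.94% rose. With the run allowed within 5 bases the contrast was small: 17.7% against 15.3% rose in A375 (medians 0.0095 and -0.013). The SK-MEL-28 shares were then 9.91% and 9.04% (medians 0.014 and -0.0078). Of the other genes with a run at the start, 26.4% reached at least the lowest of the 5 members in A375 (SNHG8) and 35.3% did so in SK-MEL-28 (SNHG12). An annotated start need not be the one used in these cells, and no test was made of this comparison of 8 genes.

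**Figure D4:**
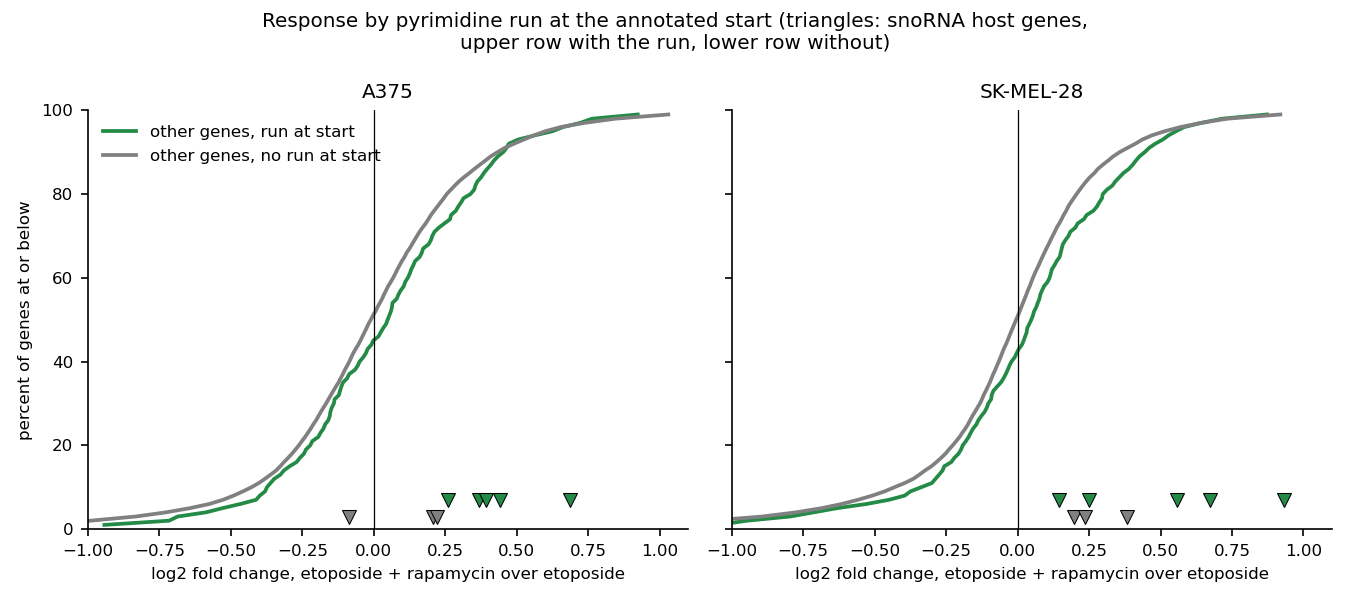
Percent of genes (vertical axis) at or below each log2 fold change, etoposide + rapamycin over etoposide (horizontal axis), for other tested genes with (green) and without (grey) a pyrimidine run at the annotated start, in A375 and SK-MEL-28. Triangles are the 8 host genes with a sequence, the upper row with the run and the lower row without it. In A375 the 5 green triangles lie to the right of the 3 grey ones, and in SK-MEL-28 the rows overlap. SNHG16, whose run begins 3 bases further in, is drawn among the grey ones.

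Depth and identity of the libraries bear on every value above. Library totals were 28189501 to 32499337 counts, and the members held between 392 and 13302 counts in a library. TMM factors were 0.982 to 0.993 in the libraries with rapamycin and 1.006 to 1.018 in those with etoposide. The scaling thus differed by treatment and gave somewhat higher log2 fold changes than library totals. Scaling by library totals moved the calls of SNHG8 in A375 (adjusted p = 0.0516 by edgeR) and of SNHG1 and SNHG5 in SK-MEL-28 (0.0694 and 0.0585) to the other side of the threshold. Of the melanocyte markers SOX10, S100B and MITF were present, with SOX10 group means of 291 to 475 CPM, while the pigmentation genes PMEL, MLANA, TYR, DCT and TYRP1 stayed at or below 92 counts in every library of both lines. According to the paper the lines were not authenticated after they were obtained, and these markers were not used to tell the lines apart. Of the leukocyte markers PTPRC, CD3E and CD14 stayed at or below 18 counts in every library, while LYZ held 173 to 1052. Some markers moved with rapamycin. Of the melanocyte markers 3 of 7 tested fell in A375 (MITF, DCT and S100B) and 1 of 7 in SK-MEL-28 (MITF), and 0 rose. Their summed level was 481 to 598 CPM with etoposide and 399.8 to 655 CPM with rapamycin in A375, and 425 to 550.1 CPM and 294 to 526 CPM in SK-MEL-28. Of 16 markers of keratinocytes, fibroblasts, leukocytes and endothelium 3 of 9 tested fell in A375 (DCN, LUM and LYZ) and 3 of 11 in SK-MEL-28 (LUM, LYZ and PECAM1), and 0 rose. Their sums were 113 to 128 CPM and 95.2 to 101 CPM in A375, and 134 to 144 CPM and 112 to 121 CPM in SK-MEL-28, lower with rapamycin in each line. The log2 fold changes were -0.51 and -0.50 for MITF and -1.32 and -0.85 for LYZ. Their part in the results for the host genes was not tested. In bulk RNA a change in the amount of an RNA per cell and in the share of cells that hold it cannot be told apart.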

How the data were processed

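RNA of A375 and SK-MEL-28 cells was sequenced from 12 polyA-enriched libraries. The authors used HISAT2 2.2.0 for mapping to GRCh38, Samtools 1.3.1 for conversion and StringTie 2.1.4 for expression, with the annotation of Ensembl 90, and deposited a table of counts, 1 column per library, neither normalized nor pooled. How coverage became counts, and whether strand was used, is not given in the sources used here. If a count is not 1 read, counting error cannot be derived from it, so the spread between replicates is used as the precision.

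Of 58312 rows, 5 name no gene (at most 0.00529% of a library's counts) and were left out. Tests used edgeR 4.0.16 in R 4.3.3 (filterByExpr with a minimum count of 10, TMM scaling, glmQLFit and glmQLFTest) with Benjamini-Hochberg adjustment over 18844 genes in A375, 18897 in SK-MEL-28 and 20101 in the fits of 12 libraries. Each line was fitted alone, without a block for replicate number. SEs were obtained from the estimate and its F statistic. On simulated counts with 200 genes changed by a fold of 2, the A375 test recovered 197 with 19 false calls and the SK-MEL-28 test 193 with 11. The test of the difference between lines recovered 172 with 10. Smaller changes, such as the rises of most members, were not simulated. Positions came from GENCODE release 44.

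The members, gene lists and tests were chosen with earlier results of these data known. All members were named; from each list the 3 genes of highest mean CPM and the largest rise and fall that passed in each line; neighbours of members with a mean of at least 10 counts; and the 5 genes with a mean of at least 100 counts in each line whose pattern was most like the members' (log2 of CPM + 0.1). Where 5 or fewer genes of a list passed in a direction, all were named, after their values were seen. The alternatives tried included DESeq2 1.42.0, edgeR with RLE scaling, no normalization beyond library totals, filters of 1 count in any and 10 counts in every library, a replicate block, counts halved, rows of the same symbol summed, one fit of 12 libraries, a test against the fold change of 1.5 (glmTreat), and each library left out in turn. The other assays of the study were not analysed here, and 2 neighbours of members and 1 marker are not reported here.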

Additional observations from a re-analysis of the deposited data

Results flagged for a closer look

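The response to rapamycin of SNHG16 and GAS5 differed between the cell lines by an interaction test in edgeR. The difference of log2 fold changes, SK-MEL-28 minus A375, was 0.48 for SNHG16 (adjusted p = 0.00810) and 0.25 for GAS5 (adjusted p = 0.0417, lost in 10 of 12 fits without 1 library).

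Among protein-coding snoRNA hosts the same test passed for EEF2 (-0.19, adjusted p = 0.0376; A375 0.82, SK-MEL-28 0.61), TPT1 (0.21, adjusted p = 0.0209; A375 0.25, SK-MEL-28 0.45), PPAN (-0.77, adjusted p = 0.0210; A375 0.60, SK-MEL-28 -0.18) and PRRC2A (-0.30, adjusted p = 0.0369; A375 0.24, SK-MEL-28 -0.069). PPAN is a ribosome biogenesis factor that hosts SNORD105, and its etoposide libraries in A375 spread widely (37.9, 28.1 and 23.3 CPM). Among snoRNP proteins it passed for RUVBL2 (-0.27, adjusted p = 0.0259; A375 0.18, SK-MEL-28 -0.092). Among cytosolic ribosomal protein genes it passed for 4 of 79, each with the larger rise in SK-MEL-28: RPS3A (0.22, adjusted p = 0.0498; A375 0.36, SK-MEL-28 0.57), RPL5 (0.24, adjusted p = 0.0412; A375 0.25, SK-MEL-28 0.48), RPL9 (0.28, adjusted p = 0.0293; A375 0.28, SK-MEL-28 0.55) and RPL21 (0.28, adjusted p = 0.0289; A375 0.28, SK-MEL-28 0.56). All these adjusted p are from edgeR.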

How the results depend on the processing

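Tested against a fold change of 1.5 rather than 0, 0 members passed in A375 and 1 (GAS5) in SK-MEL-28. The number of members whose response differed between the lines moved from 2 to 1 with the filter of 1 count in any library, and ranged from 1 to 3 over the fits without 1 library. With the replicate block it was also 1, and the members that rose in A375 numbered 6 rather than 7 (SNHG8, adjusted p = 0.0527). Libraries with the same replicate number did not deviate together over all genes (correlations of -0.035 to 0.036 over all pairs of numbers). This does not tell whether libraries of the same number were handled together, or whether single genes vary by number.

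The sign changed for values near 0. With library totals these were, in SK-MEL-28, EIF4G2 (-0.0052), SMG5 (-0.030), ZBTB37 (-0.018) and SLC3A2 (-0.010), and in the difference between lines SNHG1 (0.0010) and SNHG8 (0.0025). With 1 library left out, log2 fold changes ranged in A375 as MAGOH -0.027 to 0.16, NAF1 -0.18 to 0.20, PRSS12 -0.046 to 0.055, SNHG3 -0.076 to 0.030 and ZNFX1 -0.087 to 0.050; in SK-MEL-28 as EIF4G2 -0.0053 to 0.065, SLC3A2 -0.0051 to 0.063, SMG5 -0.019 to 0.035 and ZBTB37 -0.087 to 0.098; in the difference between lines as SNHG1 -0.052 to 0.050, SNHG15 -0.11 to 0.11, SNHG5 -0.048 to 0.070 and SNHG8 -0.079 to 0.044; and for SK-MEL-28 against A375 as SNHG8 -0.017 to 0.11. Of the members' values under all alternatives, 634 kept direction and side of the threshold, 60 lost the call, 4 gained it and 22 changed sign. The cause of these changes was not tested. Replicates of 3 limit what small differences can be seen.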
